A study of Mus musculus with 6 samples.

Results

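The 4 genes of the mouse nuclear factor I (NFI) family, *Nfia*, *Nfib*, *Nfic* and *Nfix*, were followed through the accessible chromatin of neural stem/progenitor cells (NSPCs) with and without a *Sox2* enhancer cluster. An accessible region belonged to a gene if the strongest summit in the region had a start site (TSS) of that gene as its nearest protein-coding TSS, at most 50 kb away. By this rule 94 of 190365 regions were assigned to the family, 52 of 82885 in the parent cells and 42 of 107480 in the deletion cells. The deletion list was the longer one, yet it held fewer regions at *Nfia* (12 against 18) and *Nfix* (9 against 13), the same number at *Nfib* (13) and the same number at *Nfic* (8). These counts depend on the 50 kb limit. Over the whole transcribed span *Nfia* had 38 regions in each list. There the parent and deletion lists held 29 and 17 at *Nfib*, 11 and 10 at *Nfic*, and 22 and 14 at *Nfix*.

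NFI proteins are transcription factors that bind DNA as dimers through an amino-terminal domain, on a palindrome of paired half-sites or, more weakly, on a single half-site. In the developing brain *Nfia*, *Nfib* and *Nfix* are expressed in radial glia, where they are known to promote the onset of gliogenesis and the differentiation of neural stem cells, while *Nfic* is best known for its part in tooth root development. NFI motifs are also a common feature of enhancers in cultured neural stem cells.

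ATAC-seq, in which a transposase cuts open chromatin and so marks accessible DNA, was performed on NSPCs derived from mouse embryonic stem cells of a 129S1/Cast F1 hybrid and grown in N2B27 medium with EGF and bFGF. The parent line (clone 5B) carries Sox2-mCherry on the 129 allele and no deletion. The deletion line (clone 47D) carries the same Sox2-mCherry allele and lacks SRR2-18, a cluster of enhancers downstream of *Sox2*, on both alleles. Each genotype was represented by 3 cultures of a single clone, so genotype and clone cannot be told apart. The deposited lists are pooled over the cultures of a genotype: the values below have no replicate error, and no test between genotypes was possible. All 8 neural stem/progenitor markers examined (*Nes*, *Sox1*, *Sox2*, *Pax6*, *Vim*, *Msi1*, *Fabp7* and *Hes5*) had a region within 1 kb of a TSS in both genotypes and none of 4 pluripotency markers did. Of 4 astrocyte markers only *S100b* had such a region, in both genotypes, and *Gfap*, *Aqp4* and *Aldh1l1* had none. Of 4 neuronal markers 3 had one in the parent and 4 in the deletion cells, and 2 of 4 oligodendrocyte markers had one in each; the part of other cell types in the results was not tested.

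Positions are given relative to the 5′-most TSS of each gene in mm10 (GENCODE M21 basic). *Nfia* (ENSMUSG00000028565.18) starts at chr4:97777608 on the plus strand and its basic transcripts span 341 kb. *Nfib* (ENSMUSG00000008575.17) lies on the minus strand of the same chromosome, starts at chr4:82505770 and spans 216 kb. *Nfic* (ENSMUSG00000055053.18), on the minus strand, starts at chr10:81455635 and spans 59.5 kb, and *Nfix* (ENSMUSG00000001911.16), also on the minus strand, starts at chr8:84800344 and spans 95.6 kb. *Nfia* and *Nfib* stand in gene-poor stretches, so that 93.7 and 100.5 kb around their start sites were nearest to them, whereas close neighbours left 54.0 kb to *Nfic* and 63.4 kb to *Nfix*.

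The DNA at the strongest genotype-specific regions differs in the motifs that it holds. The 201 bases centred on the summit are shown for the parent-only region (listed in the parent and overlapped by no region of the deletion list) with the highest fold enrichment at each gene, and for the deletion-only region chosen in the same way. *Nfic* had no deletion-only region. All windows are from the plus strand of mm10, none overlaps an annotated exon, and capitals mark the NFI half-site TTGGC, the SOX motifs ACAATG and ACAAAG, the AP-1 motifs TGACTCA and TGAGTCA, and the NFI core palindrome (TGGC and GCCA with 5 bases between them), each on either strand.
Nfia, parent-only region at +47.1 kb, chr4:97824600-97824800: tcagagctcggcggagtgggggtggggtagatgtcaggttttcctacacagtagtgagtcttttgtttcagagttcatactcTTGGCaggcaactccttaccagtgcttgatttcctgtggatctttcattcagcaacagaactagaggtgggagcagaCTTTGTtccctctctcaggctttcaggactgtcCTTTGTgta
Nfib, parent-only region at −27.2 kb, chr4:82532865-82533065: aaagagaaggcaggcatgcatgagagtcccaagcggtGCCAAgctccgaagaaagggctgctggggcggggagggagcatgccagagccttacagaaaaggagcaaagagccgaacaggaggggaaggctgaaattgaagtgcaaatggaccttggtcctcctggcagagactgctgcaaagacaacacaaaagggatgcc
Nfic, parent-only region at +20.0 kb, chr10:81435520-81435720: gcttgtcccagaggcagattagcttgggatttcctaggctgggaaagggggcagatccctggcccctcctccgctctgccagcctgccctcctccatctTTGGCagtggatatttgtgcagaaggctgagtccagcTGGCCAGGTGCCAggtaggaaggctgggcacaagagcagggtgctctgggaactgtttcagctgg
Nfix, parent-only region at +5.6 kb, chr8:84794615-84794815: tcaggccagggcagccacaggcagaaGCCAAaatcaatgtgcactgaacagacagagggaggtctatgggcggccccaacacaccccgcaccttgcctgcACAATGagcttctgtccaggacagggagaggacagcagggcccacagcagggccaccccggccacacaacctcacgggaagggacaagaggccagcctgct
Nfia, deletion-only region at +17.5 kb, chr4:97794963-97795163: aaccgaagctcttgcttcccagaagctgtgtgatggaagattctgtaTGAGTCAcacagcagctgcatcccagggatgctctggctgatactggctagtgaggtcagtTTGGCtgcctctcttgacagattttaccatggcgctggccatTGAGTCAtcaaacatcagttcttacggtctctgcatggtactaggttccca
Nfib, deletion-only region at −46.6 kb, chr4:82552261-82552461: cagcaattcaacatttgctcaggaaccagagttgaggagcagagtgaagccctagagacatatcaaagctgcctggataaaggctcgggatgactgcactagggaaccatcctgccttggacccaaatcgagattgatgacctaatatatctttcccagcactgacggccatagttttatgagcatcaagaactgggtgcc
Nfix, deletion-only region at +7.7 kb, chr8:84792526-84792726: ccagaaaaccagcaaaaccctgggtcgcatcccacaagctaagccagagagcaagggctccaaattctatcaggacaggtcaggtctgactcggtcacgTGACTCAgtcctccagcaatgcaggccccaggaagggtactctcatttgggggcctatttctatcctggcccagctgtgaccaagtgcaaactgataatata

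Each of the 4 parent-only windows holds an NFI half-site, that of *Nfic* also a core palindrome, and those of *Nfia* and *Nfix* also SOX motifs; none holds an AP-1 motif. The *Nfix* SOX match starts at the summit base itself. Of the deletion-only windows, that of *Nfia* holds a pair of AP-1 motifs and an NFI half-site. That of *Nfix* holds a single AP-1 motif that starts 1 base before the summit, and that of *Nfib* holds none of the motifs. For comparison, 53.4% of all parent-only windows held the half-site, 38.3% a SOX motif and 2.55% an AP-1 motif. Among all deletion-only windows these shares were 32.5%, 25.9% and 41.6%, so these few windows show no trait particular to NFI genes.

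A region was called shared where it overlapped a region of the other genotype by at least 1 base. At the NFI genes 27 of 52 parent regions were parent-only, or 51.9% (95% Wilson interval 38.7 to 64.9%, counting error only), beside 52.3% of all parent regions. Of the 42 deletion regions 16 were deletion-only, or 38.1% (25.0 to 53.2%), beside 63.1% of all deletion regions. Among regions within 50 kb of a TSS, the distance limit of the NFI regions, 45.0% of parent and 53.0% of deletion regions were genotype-specific. Both values lie within the intervals of the NFI shares, the deletion value only just under the upper limit of 53.2%. The 63.1% of all deletion regions lies above that limit. The 6 parent regions within 1 kb of a TSS were all shared, and 1 of the 6 deletion regions there was deletion-only. Farther out, 27 of 46 parent regions (58.7%) and 15 of 36 deletion regions (41.7%) were genotype-specific, where 57.2% and 64.5% of all regions between 1 and 50 kb from a TSS were.

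**Figure D1:**
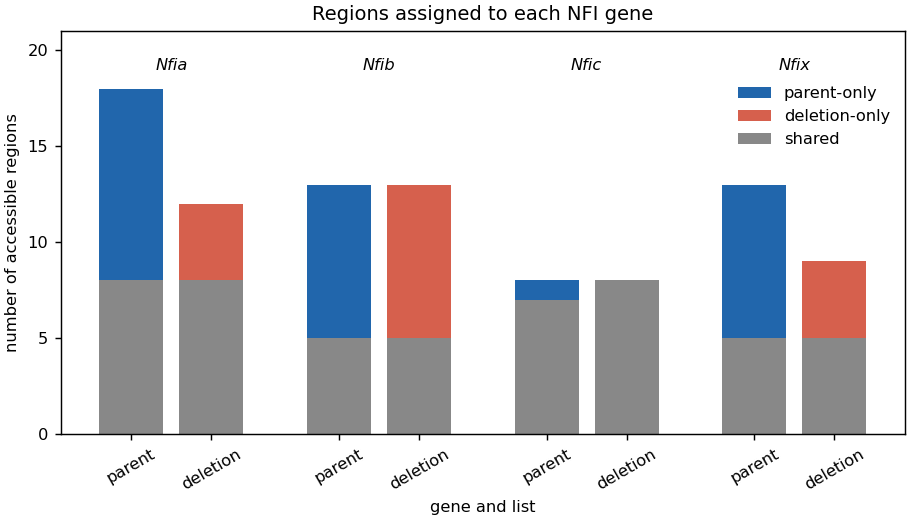
Number of accessible regions (vertical axis) assigned to each NFI gene in the parent and the deletion list, split into shared and genotype-specific regions. Within the 50 kb limit Nfia and Nfix have fewer regions in the deletion list (12 against 18 and 9 against 13). Nfib has 13 in each with 8 specific to each genotype, and Nfic has 8 in each with 1 specific region in all.

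The genes differed in how many of their regions were specific to a genotype. *Nfib* had 8 parent-only and 8 deletion-only regions, *Nfia* 10 and 4, *Nfix* 8 and 4, and *Nfic* 1 and 0. For comparison with the 17643 protein-coding genes that had any region by the same rule, 0.544% had as many parent regions as *Nfia* or more, 1.88% as many as *Nfib* and *Nfix*, and 8.08% as many as *Nfic*. The count was lower in the deletion list by 6 or more in 1.24% of genes, the difference at *Nfia*, and by 4 or more in 3.73%, the difference at *Nfix*. These shares were not matched for the number of parent regions, and genes with few of them cannot fall by that much. Per 10 kb of assigned sequence the parent list held 1.92 regions at *Nfia*, 1.29 at *Nfib*, 1.48 at *Nfic* and 2.05 at *Nfix*, and the deletion list 1.28, 1.29, 1.48 and 1.42.

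**Figure D2:**
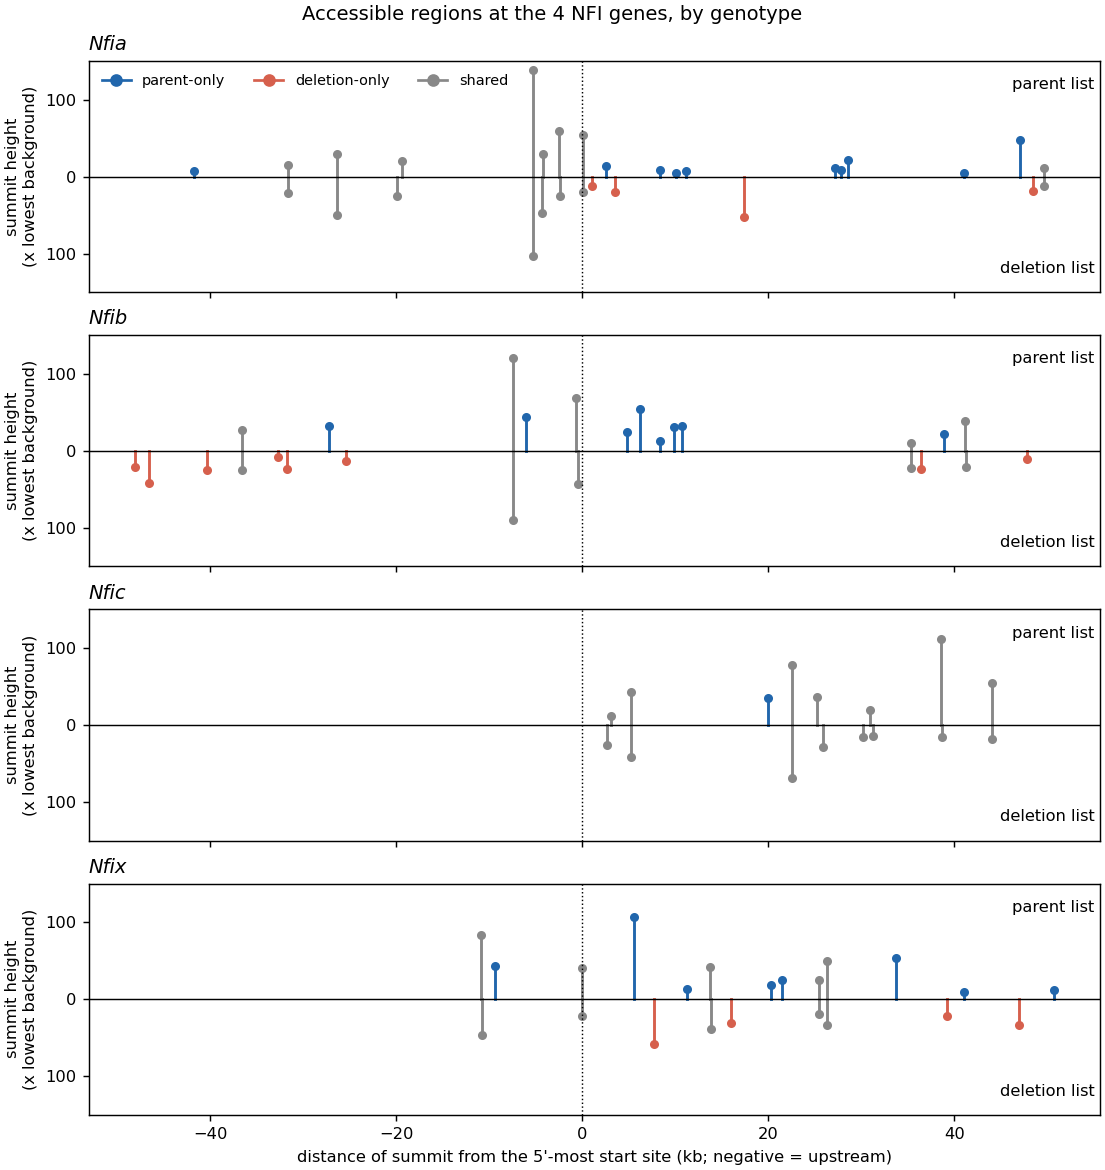
Summit position in kb from the 5′-most TSS of each gene (horizontal axis, negative values upstream) and summit height as a multiple of the lowest background of the list (vertical axis), with the parent list drawn upward and the deletion list downward. Most regions upstream of Nfia and all but 1 of those at Nfic are shared (grey). Genotype-specific regions (blue and red) are found in introns of all 4 genes and upstream of Nfia, Nfib and Nfix. Shared regions also stand on both sides of the 5′-most TSS of Nfib and Nfix.

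Heights are the reads at the strongest summit divided by the lowest background that the peak caller used for that list, 38.8 reads in the parent and 19.7 in the deletion cells, so that the 1.98 times higher background of the parent list does not raise the height. Fold enrichment is the authors' value over the local background. In these bulk samples, fewer cells with an open region and a less open region in each cell cannot be told apart. The median region had a height of 17.6 in the parent and 18.0 in the deletion list.

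At *Nfia*, the family member best known as a trigger of gliogenesis, the upstream side was mostly shared and the transcribed side was not. Upstream of the TSS 6 of 7 parent regions and all 6 deletion regions were shared. The tallest of them, at −5.3 kb (chr4:97771879-97772587), had 5360 summit reads and a height of 138 in the parent and 2036 reads and a height of 104 in the deletion cells. At −31.6, −26.4 and −19.3 kb the heights were 15.3, 28.9 and 20.6 in the parent, and the overlapping deletion regions had heights of 20.6, 49.9 and 25.0, each the taller of its pair. The summits of the pair at −19.3 kb lay 611 bases apart. The region at −4.2 kb was also taller in the deletion cells (46.6 against 29.2), and the one at −2.4 kb was shorter (24.5 against 58.9).

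Downstream of the *Nfia* TSS 9 of 11 parent regions had no counterpart in the deletion cells, and 4 of 6 deletion regions had none in the parent. All 13 lay in introns. Their assignment rests on the basic transcripts: the gene record of the neighbour *E130114P18Rik* starts at chr4:97778078, inside *Nfia*, and with gene records as TSSs *Nfia* had 1 parent-only and 1 deletion-only region. The parent-only regions stood at +2.6, +8.4, +10.2, +11.2, +27.2, +27.8, +28.5, +41.0 and +47.1 kb. Only those at +28.5 kb (height 22.2) and +47.1 kb (height 47.3, fold enrichment 12.6) reached a height of 20, a limit chosen after the data were seen. The others ranged from 4.84 to 13.7. The deletion-only regions stood at +1.1, +3.6, +17.5 and +48.4 kb, with heights of 12.1, 19.7, 51.9 and 19.2. The one at +17.5 kb (chr4:97794855-97795250) had 1020 summit reads and a fold enrichment of 30.4, which placed it within the top 0.275% of the deletion list by that measure; no parent region overlapped it in either the conservative or the optimal list. Beyond the 50 kb limit, the transcribed part of *Nfia* held a further 27 parent regions, 20 of them parent-only, and 32 deletion regions, 25 of them deletion-only, so over the whole transcribed span the lists held 38 regions each, 29 of them specific in either list.

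*Nfib*, which acts with *Nfia* in glial and cortical development, had 8 specific regions of 13 in each list (61.5%, Wilson interval 35.5 to 82.3%), beside 52.3% and 63.1% over all regions. In the parent, 5 parent-only regions followed one another at +4.9, +6.3, +8.4, +9.9 and +10.8 kb in an intron, with heights of 24.6, 54.9, 13.0, 31.1 and 32.3. No deletion region lay between the promoter and +35.3 kb. Further parent-only regions stood at −6.0 kb (height 44.5), −27.2 kb (height 32.2, fold enrichment 11.1) and +38.9 kb (height 21.8); the last overlapped a region of the optimal deletion list. In the deletion cells 6 of 8 specific regions stood upstream, at −25.3, −31.7, −32.6, −40.3, −46.6 and −48.1 kb, with heights of 13.4, 23.3, 8.19, 24.9, 41.8 and 21.3. The other two lay in introns at +36.4 and +47.8 kb, with heights of 23.2 and 10.8. The 4 nearer ones of these upstream regions fall within the annotated gene *Gm11266*. Upstream here refers to the basic transcripts of *Nfib*. The gene record of *Nfib* begins at chr4:82705750, so all regions called upstream of *Nfib* lie inside that record.

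The 5 shared regions of *Nfib* included its promoter (−0.7 kb) and an upstream region at −7.5 kb (chr4:82512910-82513645), which had the same borders in both lists and heights of 121 and 89.4. The region at −36.6 kb had the highest parent fold enrichment of the shared NFI regions, 24.6 against 7.65 in the deletion cells, while its height was nearly equal (27.2 against 25.4). The transcribed span of *Nfib* held 29 parent regions (19 parent-only) and 17 deletion regions (8 deletion-only) in all.

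*Nfic* was the member with the fewest differences between the lists. Of its 8 parent regions 7 were shared, all 8 deletion regions were, and every one of them lay in an intron. The single parent-only region, at +20.0 kb (chr10:81435391-81435788), had a height of 35.5 and a fold enrichment of 4.71. The shared regions nonetheless differed in height. At +38.6 kb (chr10:81416546-81417460) 4312 parent and 305 deletion reads gave heights of 111 and 15.5, a ratio of 7.16 and the largest among the NFI pairs by height; 1.44% of all shared pairs had a ratio as low in the deletion cells. The fold enrichment of this pair was 16.5 and 8.36, and by that measure the *Nfib* pair at −36.6 kb differed more (log2 ratios of −0.98 and −1.68). The region at +44.0 kb was likewise shorter in the deletion cells (18.8 against 54.9). In contrast, the region at +3.1 kb was 2.24 times taller in the deletion cells (25.8 against 11.5), though the 2 summits compared lay 419 bases apart. The region at +5.3 kb had nearly equal heights (42.2 against 42.3).

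*Nfix*, which limits progenitor self-renewal in the postnatal brain, had 4 deletion-only regions against 8 that were parent-only. Its strongest parent-only region, at +5.6 kb (chr8:84793739-84795002), had 4147 summit reads and a height of 107, the tallest genotype-specific region of the family. Other parent-only regions stood at +33.8 kb (height 52.9), −9.3 kb (43.6), +21.5 kb (25.0), +20.4 kb (18.8), +11.3 kb (13.1), +50.7 kb (11.9) and +41.0 kb (8.88). The 4 deletion-only regions stood in introns at +7.7, +16.1, +39.3 and +46.9 kb, with heights of 57.9, 30.9, 21.9 and 34.0 and fold enrichments of 20.0, 6.91, 17.7 and 17.5. Thus all of them passed a height of 20, a limit chosen after the data were seen, and 4 of the 8 parent-only regions did. Over the whole lists 24368 of 67794 deletion-only and 13790 of 43385 parent-only regions had a height of at least 20. Over the transcribed span *Nfix* had 22 parent regions (13 parent-only) and 14 deletion regions (5 deletion-only).

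The parent-only region at +20.4 kb of *Nfix* covers a RefSeq start site. RefSeq gives *Nfix* 4 promoter entries, *Nfia* and *Nfic* 1 each, and *Nfib* was not matched. Of these, the *Nfix* promoter at chr8:84780033-84780332 (GRCm38.p6, minus strand) lies whole within that region (chr8:84779861-84780438, height 18.8, fold enrichment 3.47), and no deletion region overlapped it. It is shown from 250 bases before to 50 after the start because it is the only member promoter in the table with a genotype-specific region over it. The capitals used above would mark the same motifs, and none occurs in it, where 46.7% of all 32851 RefSeq promoters hold an NFI half-site, 28.6% a SOX motif and 5.20% an AP-1 motif.
Nfix, RefSeq promoter: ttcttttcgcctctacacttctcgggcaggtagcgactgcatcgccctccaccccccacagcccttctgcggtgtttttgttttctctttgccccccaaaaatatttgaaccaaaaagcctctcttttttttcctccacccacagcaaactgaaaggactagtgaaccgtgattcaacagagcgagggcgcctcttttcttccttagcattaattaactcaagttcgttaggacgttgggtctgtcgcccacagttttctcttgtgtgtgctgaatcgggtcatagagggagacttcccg

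The regions that both genotypes shared were compared by height. Of the 25 parent regions with a deletion counterpart 18 were shorter in the deletion cells, or 72.0%, beside 60.8% of all 39500 pairs. The median log2 ratio of deletion over parent height was −0.33 over the NFI pairs and −0.23 over all pairs, with quartiles of −0.84 and 0.03 for NFI and −0.71 and 0.48 for all. By gene the median was 0.15 at *Nfia* (8 pairs), −0.43 at *Nfib* (5), −0.30 at *Nfic* (7) and −0.55 at *Nfix* (5, all shorter in the deletion cells). With the authors' fold enrichment in place of height the NFI median turned positive, to 0.16, beside 0.0045 over all pairs, and 9 of the 25 NFI pairs (36.0%) were lower in the deletion cells, beside 49.6% of all pairs, so the direction depended on the measure.

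The NFI promoters showed the lower heights most uniformly. A pair was called a promoter pair where its parent summit lay within 1 kb of a TSS. All 6 promoter pairs were shorter in the deletion cells, as were 83.7% of all 12602 promoter pairs. The median log2 ratio was −0.61 at NFI genes and −0.46 at all promoters. The *Nfia* promoter (chr4:97777199-97778131) had a height of 54.7 in the parent and 20.4 in the deletion cells, a log2 ratio of −1.42. Of all promoter pairs 4.54% were as low or lower, and the fold enrichment of this pair was 6.65 and 3.86. The gene record of *E130114P18Rik* on the minus strand also starts inside this parent region, at chr4:97778078. At the *Nfib* promoter the heights were 69.1 and 43.6. The 5′-most *Nfix* promoter had heights of 40.0 and 21.7, and its pair of internal promoters at +26.3 and +25.5 kb had heights of 49.1 and 33.5 and of 25.1 and 18.7. No region lay within 1 kb of the 5′-most *Nfic* TSS. The only promoter region of this gene had its parent summit at +25.2 kb, near an internal TSS, with heights of 35.7 and 28.4. Its deletion summit lay 640 bases away and 1.25 kb from the nearest TSS. The deletion height of this pair was thus not measured within 1 kb of a TSS. By fold enrichment, 2 of the 6 promoters were lower in the deletion cells (*Nfia* and the 5′-most one of *Nfix*) and 4 were higher.

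**Figure D3:**
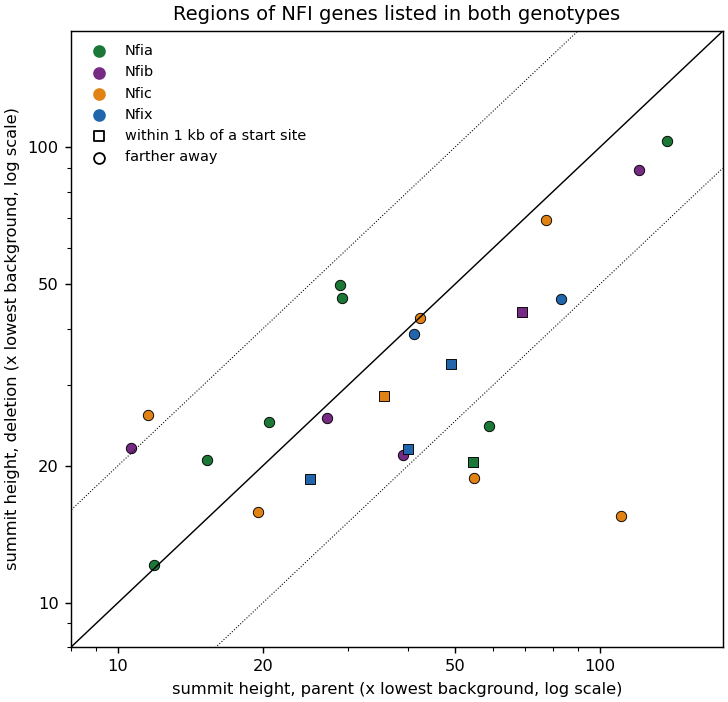
Summit height in the parent (horizontal axis) against the deletion cells (vertical axis), both as multiples of the lowest background on log scales, for the 25 NFI regions listed in both genotypes. Squares are regions whose parent summit lies within 1 kb of a TSS. The solid line marks equal heights and the dotted lines a factor of 2. All 6 squares lie below the solid line, and the lowest point relative to it is the Nfic region at 111 and 15.5.

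Away from promoters, the 19 distal NFI pairs had a median log2 ratio of −0.10, with 12 of them shorter in the deletion cells, beside −0.05 over all distal pairs within 50 kb. Of all 25 pairs, 4 were at least 2 times shorter in the deletion cells and 2 at least 2 times taller. The former were the *Nfia* promoter, the *Nfia* region at −2.4 kb and the *Nfic* regions at +38.6 and +44.0 kb, and the latter the *Nfic* region at +3.1 kb and the *Nfib* region at +35.4 kb (10.7 against 21.8).

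Several genotype-specific regions stood next to one another. A deletion-only region lay within 1 kb of 5 of the 27 parent-only NFI regions, or 18.5%, beside 7.44% of all parent-only regions. The median gap was 5931 bases at NFI genes and 10569 in all. Only 24785 of the 43385 parent-only regions in all lie within 50 kb of a TSS, the limit of the NFI regions. The comparison was not matched for distance or for how densely regions lie, and *Nfia*, *Nfib* and *Nfix* hold many regions. At *Nfib* the gap was 456 bases, between the parent-only region at −27.2 kb and the deletion-only region at −25.3 kb. At *Nfix* the tallest parent-only region (+5.6 kb) was 563 bases from the tallest deletion-only region (+7.7 kb), and the regions at +41.0 and +39.3 kb were 896 bases apart. At *Nfia* gaps of 608 and 917 bases separated the regions at +2.6 and +3.6 kb and those at +47.1 and +48.4 kb. The 917-base pair had heights of 47.3 in the parent and 19.2 in the deletion cells.

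Motif matches were counted within 100 bases of the summit. The NFI half-site was found in 18 of 27 parent-only NFI-gene regions (66.7%, 95% Wilson interval 47.8 to 81.4%), 12 of 25 shared parent regions (48.0%) and 5 of 16 deletion-only regions (31.3%, 14.2 to 55.6%). Over all regions of these classes the shares were 53.4%, 42.8% and 32.5%, each within the interval of the NFI genes. The same windows placed 500 bases beside the summit held the half-site in 37.0% of the parent-only and 25.0% of the deletion-only NFI regions. A SOX motif was present in 12 of the 27 parent-only NFI regions (44.4%, beside 38.3% in all) and in 5 of the 16 deletion-only ones (31.3%, beside 25.9%). The mean GC content of the windows was 49.2% in parent-only, 60.9% in shared parent and 50.6% in deletion-only NFI regions, and 50.6%, 56.9% and 46.1% over all regions of these classes.

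**Figure D4:**
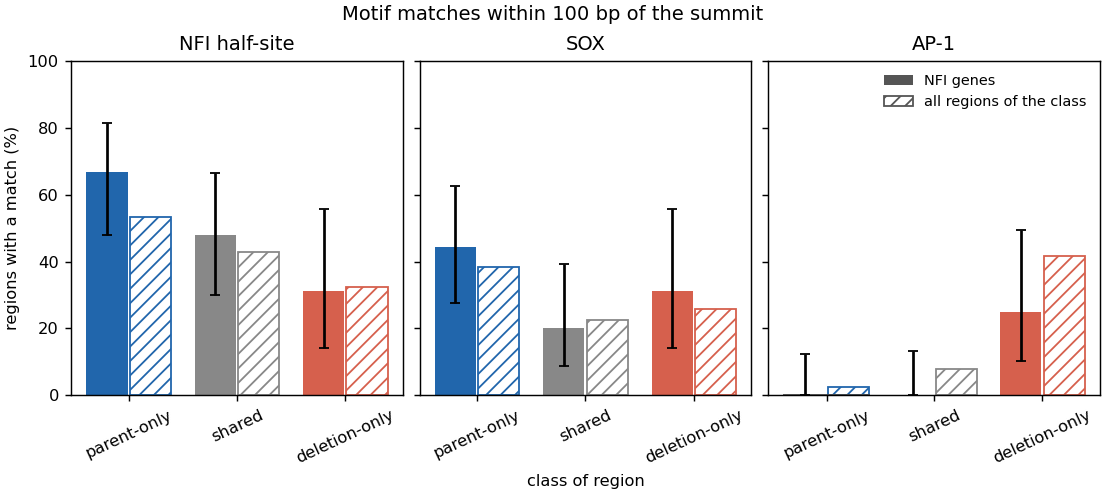
Percentage of regions with a match to the NFI half-site, SOX or AP-1 motifs within 100 bases of the summit (vertical axis), by class of region, for the NFI genes (filled bars, with 95% Wilson intervals) and for all regions of the class (hatched bars). The half-site share is 66.7% in the parent-only and 31.3% in the deletion-only NFI class, and the AP-1 share is 0 and 25.0%.

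The AP-1 motif, bound by FOS and JUN dimers, was in none of the 27 parent-only NFI regions (Wilson interval up to 12.5%) and in 4 of 16 deletion-only regions (25.0%, 10.2 to 49.5%), beside 2.55% and 41.6% of all regions. These 4 were the regions at +17.5 and +48.4 kb of *Nfia*, +36.4 kb of *Nfib* and +7.7 kb of *Nfix*. The POU octamer ATGCAAAT was in 1 NFI region of the parent list, the tall shared one at −5.3 kb of *Nfia*, and the CTCF motif in none. No NFI-gene region held the full NFI palindrome. The NFI core palindrome was in 1 of 27 parent-only regions, that of *Nfic*, and in none of the 16 deletion-only regions. Over all regions the core palindrome was present at 4.29% of parent-only, 2.27% of shared parent and 0.736% of deletion-only summits, with 0.440%, 0.446% and 0.350% in windows 500 bases away, so the motif that NFI dimers bind was 5.83 times as frequent at parent-only as at deletion-only summits.

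Genes known to act with or under NFI factors did not share one direction. Of 5 transcription factors upstream of or beside NFI genes, *Sox9*, which acts upstream of *Nfia* in gliogenesis, had 7 parent and 8 deletion regions, *Sox11* 7 and 10, *Pou3f2* 7 and 5, *Pax6* 6 and 4, and *Pou3f4* 2 and 1. Of 12 target and glial genes 6 had more regions in the parent, 5 had more in the deletion cells and *Zcchc24* had 14 in each. The astrocyte genes *Aqp4* (3 against 0), *S100b* (7 against 4) and *Slc1a3* (12 against 9), the radial glial gene *Fabp7* (3 against 2), the glial NFI target *Mmd2* (6 against 2) and the Notch effector *Hes1* (17 against 14), described as repressed by NFIA, had more in the parent. *Bbx* (5 against 15), *Insc* (2 against 9) and *Ezh2* (2 against 5), also described as repressed by an NFI factor in neural progenitors, had more in the deletion cells, as did *Apcdd1* (4 against 6) and *Gfap* (2 against 3). Over the 17 genes 50.0% of parent regions were parent-only and 52.3% of deletion regions deletion-only, beside 45.0% and 53.0% over all genes by the same rule. Among all genes with a region 27.8% had more in the parent and 45.7% more in the deletion list, against 9 and 7 of the 17 genes here.

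The genes most like each member in their numbers of parent-only, deletion-only and shared regions were found by the summed absolute difference of the 3 counts. For *Nfia* these were *Ccser2* (difference 0), *Prkca* (1) and *Dnmt3a* (2), with 5 genes at 2 or less. For *Nfib* they were *Eml1*, *Nckap5* and *Tsc22d1* (1 each, and no others as close). *Fcgr3* (0), *Csk* and *Grm4* (1 each, with 4 genes at 1 or less) were closest to *Nfic*, and *Nol4l*, *Sox6* (0 each) and *BC034090* (1, with 18 genes at 1 or less) to *Nfix*.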

How the data were processed

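Chromatin accessibility was measured by ATAC-seq in 3 NSPC cultures of each of 2 genotypes. The authors' reads went through the ENCODE ATAC-seq pipeline, with peaks called by MACS2 on mm10 and cultures combined by irreproducible discovery rate (IDR); the submitters' processing notes also name deepTools. The 4 deposited lists, a conservative and an optimal one per genotype, are pooled over cultures, and give for each summit its IDR score, its fold enrichment (the ratio of reads to local background) and its −log10 p-value, all computed by the authors' pipeline, plus the summit offset; q-values were not used. The lists give no read total per culture, so the depth of each sample is unknown here. Reads from the Cast allele can map less often to mm10, and alleles are not separated.

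Each distinct interval of the conservative lists took the values of its summit with the highest fold enrichment. Summit reads were recovered from the deposited fold enrichment (with its pseudocount of 1 read) and −log10 p; 99.9993% of parent and 100% of deletion peaks gave a whole number within 0.05. The recovery, the overlaps and the nearest-TSS search were tested on simulated data. Intervals were assigned with GENCODE M21 basic; genotype-specific means no overlap of 1 base in the other conservative list. Motifs were exact matches on either strand (TTGGC also occurs inside the full palindrome), read from GRCm38.p6 with pysam 0.24.0; promoters are from RefSeq (GRCm38.p6). A motif planned for counting is not reported here. With pooled lists there was no test; Wilson intervals cover counting error only.

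The members, gene lists and motifs were chosen with earlier results of these data known. Regions were named by rule: for each gene and class the region with the highest fold enrichment, those within 1 kb of a TSS, and the shared pairs with the highest and lowest ratio; the other regions named for their place in a gene were chosen after their values were seen. The alternatives tried were the optimal lists, merged intervals, 50% reciprocal overlap, absence from both lists of the other genotype and an IDR score of at least 830. Others were lists of equal length, limits of 10 and 100 kb, gene starts only and other scales of height. Motif windows of 50 bases to each side of the summit were also tried. A height of at least 20 was added after seeing the data.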

Additional observations from a re-analysis of the deposited data

Results flagged for a closer look

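Regions in the optimal lists that overlap no conservative region of the same genotype are signal outside the comparisons above. The optimal parent list had 6 such regions at the NFI genes, 2 each at *Nfia* and *Nfic* and 1 each at *Nfib* and *Nfix*, with heights from 3.63 to 18.4. The optimal deletion list had 4, 2 at *Nfib* and 1 each at *Nfia* and *Nfic*, with heights from 5.90 to 21.5. One of the latter, at +38.9 kb of *Nfib* (height 10.4), overlapped a conservative parent region; the others overlapped none. The deletion region at +28.5 kb of *Nfic* (chr10:81426884-81427280, height 16.2) lies over part of the RefSeq promoter of that gene.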

How the results depend on the processing

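No paired analysis was possible because the lists are pooled over cultures and hold no value per replicate; for the same reason no replicate could be left out. The 27 parent-only and 16 deletion-only regions stayed within 1.5 times these counts with the optimal lists (27 and 18), merged intervals (27 and 16), 50% reciprocal overlap (30 and 20), absence from both lists of the other genotype (26 and 16), an IDR score of at least 830 (23 and 13) and lists of equal length (35 and 12). A limit of 10 kb left 14 and 4, gene starts only left 14 and 6, and a height of at least 20, chosen after seeing the data, left 14 and 10. A limit of 100 kb gave 39 and 29. With gene starts *Nfia* fell from 10 to 1 parent-only regions, *Nfib* from 8 to 5; the GENCODE record of *Nfib* begins 200.0 kb upstream of its basic transcripts, and that of the neighbour *E130114P18Rik* begins inside *Nfia*, 87.3 kb from its own first basic TSS. In the 9 planned settings the deletion-only share at NFI genes (21.1 to 48.3%) was below that of all regions under the same setting and distance limit (38.6 to 57.3%). The parent-only share at NFI genes (43.75 to 67.3%) was above that of all regions (30.8 to 54.0%), but hardly so with gene starts only (43.75 against 43.7482%). The settings reuse the same cultures and are not independent of one another. The median log2 height ratio of the shared pairs was −0.33; it was −0.10 with the median of all pairs set to 0, −0.42 within 10 kb, −0.32 within 100 kb and −0.42 for summits within 100 bases of each other, and it reversed to 0.16 with fold enrichment (the cause was not tested). Windows of 50 bases to each side of the summit lowered the half-site shares to 29.6% (parent-only) and 12.5% (deletion-only). They lowered the SOX share of parent-only regions to 25.9%, as shorter windows hold fewer bases. Pooled lists limit all of these values: the spread between cultures and clones is unknown.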
